A study of Mus musculus with 7 samples.

Results

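The 10 genes described here, Cdkn1a, Ccng1, Mdm2, Bbc3, Pmaip1, Sesn1, Phlda3, Eda2r, Zmat3 and Trp53inp1, are textbook targets of the tumour suppressor p53. They were chosen for that role and not for a measured value, though with earlier results of these data known. Their chromatin was read from open chromatin peaks of sorted intestinal stem cells. A peak belonged to one of the genes if its summit lay in the gene body, or if that gene was the nearest protein-coding gene within 50 kb. Overlapping peaks of the 7 libraries (1 bp or more) were joined, which gave 103809 regions on chromosomes 1 to 19 and X, and 57 of them belonged to the 10 genes. The lists held 328 peaks of these genes, of which 326 lay in those 57 regions.

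All recipients were female B6-GFP-Lgr5 mice of 8 to 12 weeks that had been lethally irradiated and then given bone marrow. The syngeneic group (Syn, 3 libraries) served as control, and the allogeneic group (Allo, 4 libraries) received BALB/c marrow, a mismatch that can cause graft-versus-host disease. On day 7 after transplantation, 50000 Lgr5-positive cells per library were sorted by the GFP reporter from a pool of 3 to 4 mice and profiled by Omni-ATAC-seq, which uses the Tn5 transposase to cut and tag open DNA. Every library therefore came from irradiated mice, without an unirradiated group, so the comparison is between transplant types and the effect of irradiation itself was not measured. In pooled cells, a lower share of cells with an open site and less opening per cell cannot be told apart.

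DNA breaks activate the kinases ATM and ATR, which stabilise p53, and p53 then binds pairs of short half-sites in DNA and raises transcription of its targets. The targets halt the cell cycle, start apoptosis, slow growth signalling and, through Mdm2, end the response by marking p53 for degradation. In the small intestine, crypt cells near the stem cell zone are highly sensitive to radiation, and p53 with its target Bbc3 (PUMA) is known for driving their early apoptosis in mice. ATAC-seq reads whether a stretch of DNA is open, not whether a gene is transcribed or p53 is bound.

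The DNA at the starts of the genes is shown first, because it shows where the best-known kind of p53 site lies relative to the open regions. Promoter windows (250 bases before to 50 after an annotated start, RefSeq, GRCm38.p6, the assembly of mm10) were found for 7 of the 10 genes, all but Pmaip1, Zmat3 and Trp53inp1. The p53 half-site motif, 10 bases long, was searched on both strands, as a single copy and as a tandem of copies separated by 0 to 13 bases. Capitals mark half-sites, a copy with 1 mismatch in a tandem included, or the GC box GGGCGG (or its complement CCGCCC) in the window without one, and each sequence is given 5′ to 3′ on the strand of its gene. The first pair are the upstream start (chr17:29090729-29091028, plus strand) and the downstream start (chr17:29093519-29093818, plus strand) of Cdkn1a, which encodes the cyclin-dependent kinase inhibitor p21. The other windows are those of Ccng1 (chr11:40755237-40755536, minus strand), Mdm2 (chr10:117710709-117711008, minus strand) and the second start of Sesn1 (chr10:41887189-41887488, plus strand).
Cdkn1a upstream start: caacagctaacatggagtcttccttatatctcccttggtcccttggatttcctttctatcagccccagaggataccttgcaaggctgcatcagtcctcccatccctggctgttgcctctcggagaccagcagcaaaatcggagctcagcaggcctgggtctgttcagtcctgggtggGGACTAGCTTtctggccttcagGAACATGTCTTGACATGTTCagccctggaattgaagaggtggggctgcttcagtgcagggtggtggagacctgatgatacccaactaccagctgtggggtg
Cdkn1a downstream start: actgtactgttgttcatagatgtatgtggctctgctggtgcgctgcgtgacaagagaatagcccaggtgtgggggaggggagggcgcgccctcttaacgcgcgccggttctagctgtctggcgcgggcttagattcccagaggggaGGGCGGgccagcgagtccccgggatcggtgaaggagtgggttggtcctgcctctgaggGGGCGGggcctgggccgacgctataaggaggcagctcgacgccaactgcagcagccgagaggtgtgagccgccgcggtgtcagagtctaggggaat
Ccng1: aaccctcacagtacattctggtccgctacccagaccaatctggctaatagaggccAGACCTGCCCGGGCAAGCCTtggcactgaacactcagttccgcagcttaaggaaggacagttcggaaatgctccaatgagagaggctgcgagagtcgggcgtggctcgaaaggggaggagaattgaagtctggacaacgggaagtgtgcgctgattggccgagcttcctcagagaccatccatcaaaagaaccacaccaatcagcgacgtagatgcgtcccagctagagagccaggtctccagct
Mdm2: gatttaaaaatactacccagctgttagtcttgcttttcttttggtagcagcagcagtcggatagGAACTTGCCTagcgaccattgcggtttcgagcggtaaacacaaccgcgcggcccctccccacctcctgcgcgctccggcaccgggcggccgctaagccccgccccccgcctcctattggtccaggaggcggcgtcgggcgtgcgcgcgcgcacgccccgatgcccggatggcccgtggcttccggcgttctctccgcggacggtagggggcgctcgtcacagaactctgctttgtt
Sesn1 second start: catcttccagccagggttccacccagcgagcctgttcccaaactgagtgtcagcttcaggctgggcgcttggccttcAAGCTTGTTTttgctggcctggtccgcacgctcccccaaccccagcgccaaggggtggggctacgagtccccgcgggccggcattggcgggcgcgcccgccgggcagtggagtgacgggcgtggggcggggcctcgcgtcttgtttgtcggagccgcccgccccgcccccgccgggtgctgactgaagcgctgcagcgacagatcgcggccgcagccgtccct

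The upstream Cdkn1a window held the one tandem without a mismatch among the members' windows, GGACTAGCTT at position -73 and GAACATGTCT at position -51 from the start, 12 bases apart. The second of these is also the first copy in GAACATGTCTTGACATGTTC, a tandem with no spacer and 1 mismatch. No library had a peak over this window, and the nearest peak of any library lay 2.4 kb away. The downstream start, 2.79 kb from the first, held no half-site and 2 GC boxes, and a region of 2.36 kb was open over it in all 7 libraries. Within these windows, the p53 motif and the peaks of Cdkn1a thus stood at different starts. The rest of this open region and the other Cdkn1a regions were not searched for the motif.

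Among the other windows, Ccng1 held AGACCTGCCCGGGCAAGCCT, a tandem with no spacer and 1 mismatch, at position -195. Mdm2 held a single half-site, GAACTTGCCT, at position -186, and the second start of Sesn1 held AAGCTTGTTT at position -173. These 3 windows had a peak in all 7 libraries. The 3 windows of Bbc3, those of Phlda3 and Eda2r and the first start of Sesn1 held no half-site, and all of them had a peak in all 7 libraries. Of 32619 promoter windows genome-wide, 8.36% held a half-site, 0.0736% (24 windows) a tandem without mismatch and 1.1% a tandem with at most 1 mismatch. Of the 24 windows with a perfect tandem, 19 had no peak in any library (50.4% of all windows) and 3 had a peak in all 7 (42.6% of all windows), and several of the 19 were neighbouring starts of 1 gene. The GC box stood in 35.9% of windows, CCAAT in 37.6% and TATAAA in 13.7%. A match describes the letters only, and the absence of one says nothing of p53 outside the window.

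The data are 1 list of peaks per library, with no read counts, so the depth behind each list is unknown. The lists held 71925, 73668 and 76438 peaks in Syn 1 to 3 and 62977, 76091, 88861 and 81719 in Allo 1 to 4. Because lists of different length are not comparable by peak height, each peak was placed by its rank percentile, its position in its own list by the authors' -log10 q (100 at the top). A difference in percentile is a difference of place within the list and not of accessibility. Of 8 crypt stem cell markers, 7 had a peak within 1 kb of a gene end in all 7 libraries. The number was 1 of 8 for T and NK cell markers, 1 of 6 for leukocyte and myeloid markers and 0 of 5 for stromal and endothelial markers. Of these lists 7, 4 and 4 markers had no such peak in any library. Among other epithelial lists, it was 4 of 4 for enterocyte, 5 of 6 for Paneth and goblet and 3 of 3 for tuft markers. For enteroendocrine markers it was 1 of 3. The count therefore did not separate stem cells from most other epithelial cells. Paneth and goblet markers held 3.20 to 3.80 peaks per 10000 in Syn and 4.07 to 4.77 in Allo, tuft markers 1.83 to 2.58 and 2.37 to 3.06, T and NK markers 0.654 to 0.814 and 0.788 to 0.920. In other lists the Allo values spanned the Syn values. Crypt stem cell markers held 11.3 to 11.8 in Syn and 10.6 to 11.9 in Allo, enterocyte markers 1.70 to 1.81 and 1.24 to 1.91. Stromal and endothelial markers held 3.27 to 3.39 and 2.70 to 3.67, leukocyte and myeloid markers 1.57 to 1.67 and 1.43 to 2.08. The part of these lists in the results below was not tested.

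More of the open regions of the p53 targets were found in every library than were missing from any. Of the 57 regions, 31 (54.4%) had a peak in all 7 libraries, against 48.5% of all merged regions, and without Pmaip1 the share was 20 of 41 (48.8%). All 10 genes had such a region within 1 kb of an annotated start, or of a gene end for the 3 genes without a window, which was not counted for other genes. By peaks within 1 kb of either gene end, 8 of the 10 genes, all but Cdkn1a and Bbc3, had one in all 7 libraries, against 57.6% of all protein-coding genes. No member region was open in all Allo and no Syn libraries (1.14% of all regions), and 1 was open in all Syn and no Allo libraries (1.01%), together 1 of 57 against 2.15%. The other 25 were open in some libraries of one or both groups.

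**Figure D1:**
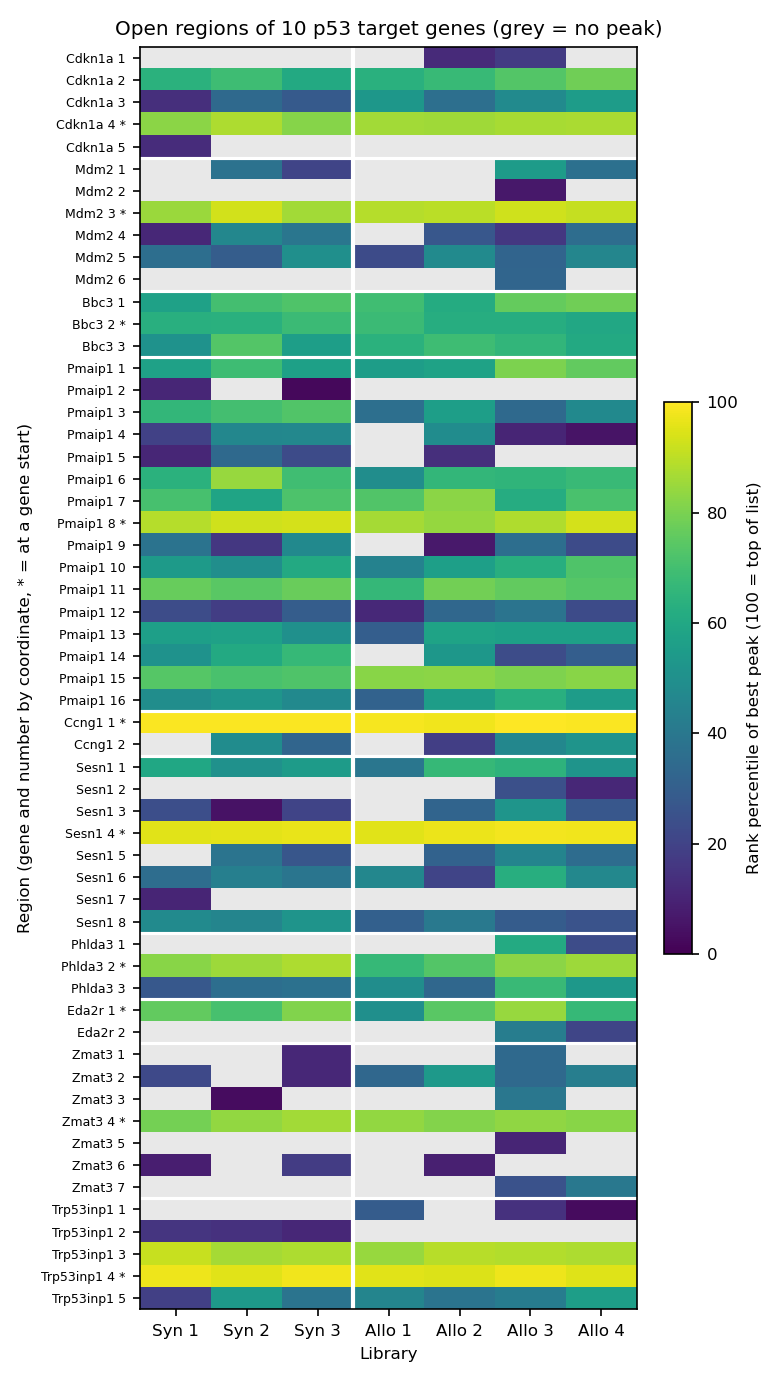
Rank percentile (colour, 0 to 100) of the best peak of each of the 57 regions (rows, numbered along the chromosome within each gene, a star marking the region at a gene start or end) in the 7 libraries (columns); grey means no peak. The 10 starred rows are filled in every library, and most grey cells lie in rows of low percentile.

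The single region that separated the groups lay 17.3 kb outside Trp53inp1 (region 2, chromosome 4, 11138961 to 11139326). Its percentile was 15.3, 14.3 and 11.3 in Syn 1 to 3, low in each list in which it appeared. Among the regions present in some libraries, 5 were missing only from Allo 1, the shortest list (4.28% of all regions), 4 were present only in Allo 3 and 4 (3.7%) and 3 only in Allo 3, the longest list (8.41%). The 26 regions not shared by all libraries had a median percentile of 24.8 where present and a median width of 381 bp, against 66.6 and 1032 bp for the 31 shared ones.

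Summed over the 10 genes, Syn 1 to 3 held 46, 46 and 49 peaks and Allo 1 to 4 held 38, 47, 53 and 49, so the numbers of peaks overlapped. Per 10000 peaks of the list, the values were 6.40, 6.24 and 6.41 in Syn and 6.03, 6.18, 5.96 and 5.996 in Allo. On that scale all Allo libraries were lower than all Syn libraries, 6.04 ± 0.0937 (SD, n = 4) against 6.35 ± 0.0920 (SD, n = 3), a ratio of 0.952. With each list cut to the length of the shortest, the difference was -0.185 in place of -0.307. It was -0.0866 when peaks were assigned within 10 kb and -0.0886 in gene bodies alone. In peak number the mean difference was -0.25 for the 10 genes together, -1.58 for Pmaip1 and -0.667 to 0.917 for the other genes. The drop in Pmaip1 was larger than that of the 10 genes together, so the other genes together held more peaks on average in Allo. With assignment within 10 kb the difference of Pmaip1 was 0.167. Values per 10000 peaks without Pmaip1 were not computed. On the same scale the 39 other p53 targets separated the other way, at 19.2 to 19.6 in Syn and 19.7 to 21.6 in Allo. For the p53 regulators and the DNA damage genes the groups overlapped.

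The regions at gene starts ranked high in both groups, with values that overlapped between them. Their mean percentile had a median of 87.5 over the 10 genes (range 64.0 to 99.1), against 55.4 for the 21 other regions open in all 7 libraries. By distance to either gene end, the 7 shared member regions within 1 kb had a median of 89.5 and the others one of 60.0, beside 87.2 and 58.7 for all shared regions. The number of starts at which the groups did not overlap was 0 of 10, against 14.6% of the 50324 shared regions, and 0 passed the threshold, against 0.457%. The adjusted p-values ran from 0.351 to 0.983 (limma with Benjamini-Hochberg adjustment over all shared regions). A p-value above the threshold does not show that the groups are alike.

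**Figure D2:**
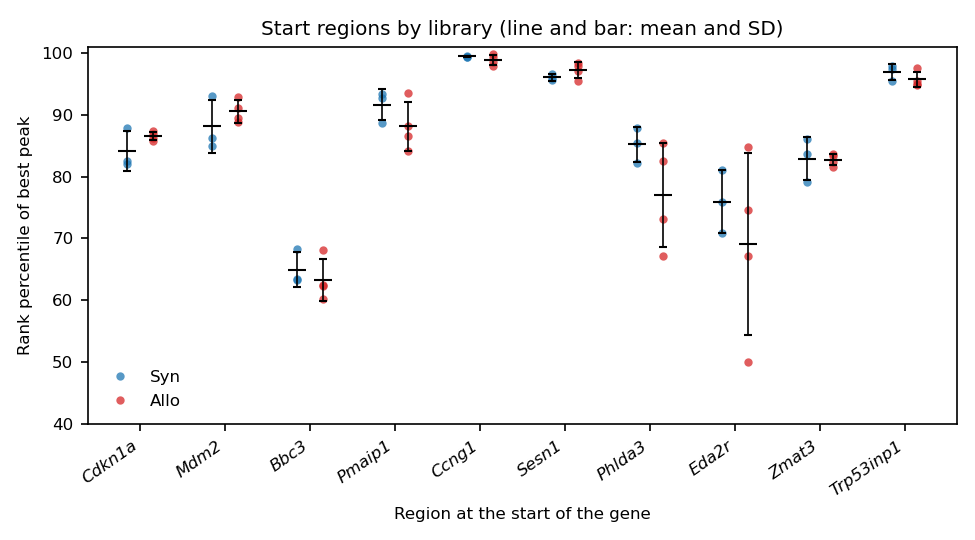
Rank percentile of the best peak in the region at the start (or gene end) of each of the 10 genes, 1 point per library, Syn in blue (n = 3) and Allo in red (n = 4); horizontal lines are means and bars SD, and the axis begins at 40. Ccng1, Sesn1 and Trp53inp1 stand at the top, Bbc3 is lowest, and in Eda2r 1 Allo library lies at 49.9.

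Among the genes that stop the cell cycle, Cdkn1a had 5 regions, 3 of them open in every library. The region at its downstream start (chromosome 17, 29093437 to 29095792) had a percentile of 82.5, 87.8 and 82.0 in Syn 1 to 3 and of 86.2, 85.8, 86.9 and 87.5 in Allo 1 to 4. The groups overlapped, with a difference (Allo minus Syn) of 2.49 ± 1.99 (SE). The authors' fold over background at this region was 4.85, 5.34 and 4.80 in Syn and 5.65, 5.41, 4.98 and 5.32 in Allo. Cdkn1a held 4, 3 and 3 peaks in Syn 1 to 3 and 3, 4, 4 and 4 in Allo 1 to 4.

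A second Cdkn1a region, 6.5 kb upstream of the first start (region 3, 29084305 to 29084835), stood lower in the lists. Its percentile was 13.5, 34.0 and 28.2 in Syn and 52.9, 36.5, 48.0 and 55.3 in Allo. Each Allo library lay above each Syn library, but Syn 2 at 34.0 and Allo 2 at 36.5 were close. The difference was 23.0 ± 8.13 (SE, 95% interval 5.46 to 40.5), with an adjusted p of 0.205 in limma, so it did not pass the threshold. Another region, 9.9 kb upstream, was open in all libraries, with group means of 64.5 in Syn and 70.7 in Allo, and its values overlapped.

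Ccng1, which encodes cyclin G1, a protein that recruits a phosphatase to Mdm2, had the highest region of all 10 genes. Its start region (chromosome 11, 40754540 to 40755766) had a percentile of 99.6, 99.4 and 99.4 in Syn 1 to 3 and of 98.5, 97.8, 99.8 and 99.4 in Allo 1 to 4. The groups overlapped near the top of every list, and 96.7% of the 15110 genes with a peak in all libraries had a lower best percentile. Its only other region, 8.3 kb away, was absent from Syn 1 and Allo 1. The gene therefore held 1, 2 and 2 peaks in Syn and 1, 2, 2 and 2 in Allo.

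Mdm2, the ubiquitin ligase that ends the p53 response, had 6 regions, of which 2 were open in every library. The start region (chromosome 10, 117709455 to 117711378) had a percentile of 85.0, 93.1 and 86.3 in Syn and of 88.8, 89.5, 92.9 and 91.2 in Allo. These values overlapped, with a difference of 2.46 ± 1.91 (SE). The second shared region lay 7.9 kb upstream, with means of 38.4 in Syn and 37.3 in Allo. Peaks numbered 3, 4 and 4 in Syn and 3, 3, 6 and 4 in Allo, and the 6 peaks of Allo 3 included 2 regions found in that library only.

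The apoptosis genes Bbc3 and Pmaip1 encode the BH3-only proteins PUMA and NOXA, which neutralise BCL-2 family survival proteins. Bbc3 had 3 regions and all were open in every library, one 8.6 kb outside the gene and 2 in the gene. The region over its annotated starts (chromosome 7, 16309222 to 16310477) had a percentile of 63.2, 63.4 and 68.2 in Syn and of 68.1, 62.3, 62.4 and 60.1 in Allo. It was the lowest of the 10 start regions, the groups overlapped, and the difference was -1.71 ± 5.18 (SE). The other 2 regions had group means of 66.6 (Syn) and 71.4 (Allo), and 60.0 (Syn) and 64.7 (Allo), so in Bbc3 no region stood clearly above the others. Bbc3 held 4, 5 and 5 peaks in Syn and 4, 5, 4 and 5 in Allo.

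Pmaip1 had 16 regions, the most of the 10 genes, and 11 were open in every library. They spread over 107 kb of sequence nearest to this gene, 14.95 regions per 100 kb. Per length, Phlda3 (17.8) and Mdm2 (17.6) were denser, Bbc3 (13.9) and Cdkn1a (12.4) somewhat less dense, and Eda2r sparsest with 1.39. Only 1 of the 16 regions had its summit inside the gene body. The region at a gene end (chromosome 18, 66457866 to 66459787) had a percentile of 88.8, 92.8 and 93.4 in Syn and of 86.6, 84.2, 88.2 and 93.5 in Allo. Those values overlapped, with a difference of -3.52 ± 2.03 (SE). Peaks numbered 17, 16 and 16 in Syn and 13, 17, 15 and 14 in Allo.

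The differences of the 11 shared regions of Pmaip1 went in both directions, 6 positive and 5 negative. In limma 0 passed the adjusted threshold, against 0.457% of all shared regions, and 2 had an unadjusted p under 0.05, against 15.4%. Region 3, 37.0 kb from the gene (66421322 to 66422108), had a percentile of 66.3, 70.1 and 73.0 in Syn and of 36.5, 55.9, 34.2 and 47.6 in Allo. All Allo values lay below the Syn values, by -26.3 ± 6.96 (SE, 95% interval -41.3 to -11.3), with an adjusted p of 0.107 in limma. The authors' fold over background was 7.56, 7.79 and 8.69 in Syn and 4.94, 6.59, 5.61 and 6.92 in Allo, which also did not overlap. Ranked only among the 50324 regions open in all libraries, so that every list has the same length, its percentiles were 52.2, 56.5 and 59.2 in Syn and 24.9, 35.1, 8.26 and 21.1 in Allo. On that scale the difference was -33.6 ± 7.62 (SE) with an adjusted p of 0.0330 in limma, and 1459 regions genome-wide passed the threshold in place of 230. Without Allo 1 and 2, which leaves only the Allo lists with another peak naming scheme, the difference in the full lists was -28.9 with an adjusted p of 0.0166 in limma, and 12.1% of all shared regions passed. With lists cut to the shortest length, which also makes them equal, region 3 had a difference of -34.0 and did not pass (adjusted p of 0.0511 in limma). It also did not pass by fold (0.159 in limma), without Syn 1, 2 or 3 (0.301, 0.305 and 0.352 in limma) or without Allo 3 (0.178 in limma).

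On the other side of the gene, region 15 (66503640 to 66504727, 38.6 kb from the gene) stood higher in Allo. Its percentile was 73.4, 71.5 and 72.5 in Syn and 82.1, 82.7, 80.5 and 82.4 in Allo. The groups did not overlap and the spread within each was about 1 point, with SDs of 0.983 and 0.964. The difference was 9.46 ± 2.92 (SE, 95% interval 3.18 to 15.7) and the adjusted p was 0.154 in limma. Region 6, 16 kb from the gene, had percentiles of 63.8, 84.4 and 69.2 in Syn and 49.1, 66.3, 65.5 and 67.7 in Allo. These overlapped, with means of 72.5 and 62.1. Neighbouring regions went in both directions. On the side of region 3, region 1 had a difference of 6.40 and region 7 one of 4.94, against -10.3 in region 6. Region 4 stood at 19.3, 46.3 and 46.5 in Syn and at 48.6, 10.2 and 5.14 in Allo 2 to 4, without a peak in Allo 1. Region 5 was present in all Syn libraries and Allo 2, and region 2 in Syn 1 and Syn 3 only. On the side of region 15, region 13 had a difference of -4.27 and region 16 one of 1.82. In regions 1, 6, 7, 13 and 16 the groups overlapped. Region 14, 37.3 kb from the gene and next to region 15, had percentiles of 51.0, 60.6 and 67.0 in Syn, no peak in Allo 1, and 52.96, 23.3 and 29.7 in Allo 2 to 4. Without Allo 1 and 2 its difference was -33.0, with an adjusted p of 0.0178 in limma. That is the setting whose large share of passing regions is given above for region 3, with only the Allo lists of another naming scheme. The region could be fitted there because Allo 1, without a peak, was left out, and Allo 2, also left out, lay within the Syn values.

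**Figure D3:**
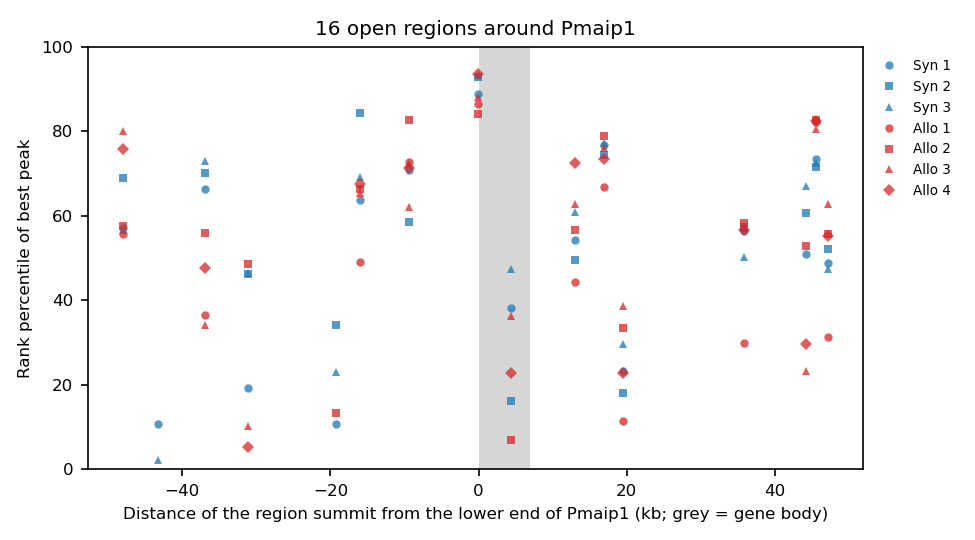
Rank percentile of the best peak (0 to 100) in each of the 16 regions around Pmaip1 against the distance in kb of the region from the lower-coordinate end of the gene, 1 symbol per library, Syn blue and Allo red; the grey band is the gene body. At 37.0 kb below the gene all Allo points lie under the Syn points, and on the other side of the gene, in region 15, the Allo points at 80.5 to 82.7 lie over the Syn points.

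Sesn1 and Phlda3 slow growth signalling. Sestrin 1, the product of Sesn1, restrains mTORC1, and Phlda3 competes with Akt for membrane lipids. Sesn1 had 8 regions, all inside its body of 97.9 kb, and 4 were open in every library. The region at its second start (chromosome 10, 41886974 to 41887920) had a percentile of 95.6, 96.0 and 96.6 in Syn and of 95.5, 97.2, 98.4 and 97.9 in Allo. The groups overlapped at the lower end, with a difference of 1.16 ± 0.827 (SE). The first start, 76.9 kb upstream, is near the neighbouring gene Cep57l1, and the region there, at 93.7 to 95.4 in all libraries, fell to Cep57l1 by its best summit. The Syn 2 peak in that region had its summit nearer to Sesn1 and is counted among the Sesn1 peaks of Syn 2.

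Region 8 of Sesn1 (41896337 to 41897368), in the gene 9251 bases past the second start, stood lower in Allo. Its percentile was 47.7, 45.7 and 51.7 in Syn and 30.8, 40.3, 29.0 and 25.6 in Allo. The groups did not overlap, and the difference was -17.0 ± 7.29 (SE, 95% interval -32.6 to -1.26) with an adjusted p of 0.288 in limma. The authors' fold at this region was 4.19, 4.01 and 4.55 in Syn and 4.17, 4.29, 3.70 and 3.74 in Allo, and by fold the groups overlapped. Sesn1 held 7, 7 and 6 peaks in Syn and 4, 6, 7 and 7 in Allo.

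Phlda3 had 3 regions, 2 of them open in every library. The start region (chromosome 1, 135765729 to 135766729) had a percentile of 82.2, 85.5 and 87.9 in Syn and of 67.1, 73.1, 82.5 and 85.4 in Allo. Allo 1 and 2 lay below all Syn libraries and Allo 3 and 4 within their range, with a difference of -8.19 ± 3.99 (SE). Region 3, 1.9 kb beyond the gene (135770886 to 135771501), had percentiles of 27.4, 36.3 and 37.4 in Syn and 49.2, 33.5, 67.7 and 53.5 in Allo. The groups overlapped, with a difference of 17.2 ± 8.49 (SE) and an adjusted p of 0.356 in limma. Without Allo 1 and 2 that difference was 26.9 with an adjusted p of 0.0383 in limma, in a setting where 12.1% of all shared regions passed. Without Allo 3 and 4 it was 7.61, with an adjusted p of 0.729 in limma. The Syn libraries held 2 peaks each and Allo 1 to 4 held 2, 2, 3 and 3.

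Eda2r, the receptor for ectodysplasin A2 in the TNF receptor family, had 2 regions along the X chromosome. Its start region (97376075 to 97377486) had a percentile of 75.8, 70.9 and 81.1 in Syn and of 49.9, 74.6, 84.8 and 67.1 in Allo. The Allo libraries spread on both sides of the Syn values, with an SD of 14.7 against 5.08, and the difference was -6.85 ± 6.71 (SE). Peaks numbered 1, 1 and 2 in Syn and 2, 2, 2 and 3 in Allo, the lowest exact permutation p of the 10 genes for peak number at 0.114 (two-sided, adjusted p of 1). The second region, 20.9 kb away, was found in 2 libraries, Allo 3 and 4.

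Zmat3, an RNA-binding zinc finger protein that regulates splicing and mRNA stability, had 7 regions, and the one at a gene end (chromosome 3, 32364923 to 32366506) alone was open in every library. Its percentile was 79.1, 83.6 and 86.0 in Syn and 83.6, 81.6, 83.3 and 82.4 in Allo. The Allo values lay inside the range of the Syn values, with a difference of -0.182 ± 2.37 (SE). Peaks numbered 3, 2 and 4 in Syn and 2, 3, 6 and 3 in Allo, with the highest number again in the longest list.

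Trp53inp1, a stress-induced protein that takes part in p53 phosphorylation and autophagy, had 5 regions and 3 were open in every library. The region at a gene end (chromosome 4, 11155803 to 11157089) had a percentile of 97.5, 95.4 and 97.9 in Syn and of 95.4, 94.9, 97.6 and 95.01 in Allo. The groups overlapped, with a difference of -1.22 ± 0.934 (SE). A second region, 8.6 kb outside the gene (11146640 to 11148459), also stood high, with means of 88.6 in Syn and 87.5 in Allo and overlapping values. Peaks numbered 4, 4 and 5 in Syn and 4, 3, 4 and 4 in Allo.

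Over the 31 shared member regions, 0 passed the adjusted threshold of 0.05 in limma, where 0.457% of the 50324 shared regions passed, 180 higher (0.358%) and 50 lower (0.0994%) in Allo. At an unadjusted p under 0.05 there were 4 member regions, against 15.4% of all. Groups did not overlap in 4 of 31 (12.9%), 2 with Allo above (8.06% of all) and 2 with Allo below (6.57% of all), against 14.6% in either direction, so the members' share was near the background. The difference was positive in 17 of 31 (54.8%) and in 54.2% of all shared regions, with a median of 1.16 points in the members and 0.436 in all.

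**Figure D4:**
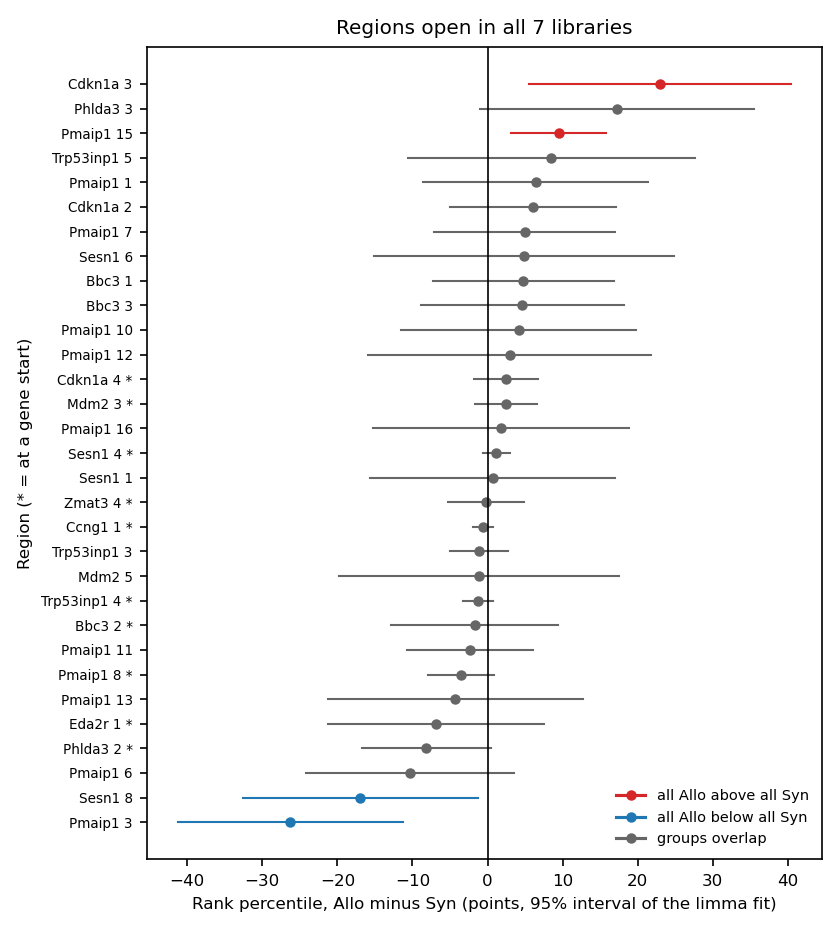
Difference in rank percentile, Allo minus Syn, with its 95% interval from the limma fit, for the 31 regions of the 10 genes that were open in all 7 libraries, sorted by size; a star marks the region at a gene start or end. Red and blue mark the 4 regions whose groups did not overlap, Cdkn1a 3 and Pmaip1 15 above zero and Sesn1 8 and Pmaip1 3 below it.

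Counted per gene, peak number passed the adjusted threshold for 0 of the 10 genes and for 0 of 17294 genes with a peak (0%). At an unadjusted exact permutation p under 0.05 the counts were 0 of 10 and 477 of 17294 (2.76%). With 3 against 4 libraries there are 35 relabellings and the smallest possible p is 0.0286, so no gene could pass an adjustment over this number of genes. The best percentile of the gene passed for 0 of 10 genes in limma, against 3 of 15110 (0.0199%), and for 0 of 10 at an unadjusted p under 0.05, against 10.6%. Adjusted p-values of the 10 genes ran from 0.545 to 0.990.

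By the mean of the best percentile over the 7 libraries, Ccng1, Sesn1 and Trp53inp1 stood above 96.7%, 85.6% and 83.6% of genes. Pmaip1 (56.2%), Mdm2 (55.8%), Cdkn1a (43.7%), Zmat3 (37.4%) and Phlda3 (33.1%) stood in the middle, and Eda2r (21.6%) and Bbc3 (21.3%) lowest. Neighbours in the middle of this order, Pmaip1 and Mdm2 or Cdkn1a and Zmat3, had values that overlapped between libraries.

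The genes around these targets in the pathway were counted in the same way. For p53 and its regulators, 20 genes had 141 regions, 63 of them shared by all libraries, 1 open in Allo only and 0 in Syn only. Over all merged regions these shares were 48.5%, 1.14% and 1.01%. The Allo-only region belonged to Cop1, a ubiquitin ligase that acts on p53, and had percentiles of 16.3, 37.0, 33.1 and 26.9 in Allo 1 to 4. Trp53 itself held 1, 2 and 2 peaks in Syn and 2, 3, 2 and 3 in Allo. Mdm4, the partner of Mdm2 that inhibits p53, held 7, 7 and 6 peaks in Syn and 4, 5, 10 and 11 in Allo, with Allo 1 and 2 below and Allo 3 and 4 above the Syn values.

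Of the 63 shared regions of the regulators, 1 passed the threshold, against 0.457% of all shared regions. It lay 8.2 kb outside Ep300, which encodes the acetyltransferase p300 that acetylates p53 and histones (chromosome 15, 81577666 to 81578243). Its percentile was 14.9, 26.8 and 30.1 in Syn and 61.1, 78.8, 75.4 and 70.7 in Allo. Each Allo library lay far above each Syn library, by 47.5 ± 7.12 (SE), with an adjusted p of 0.0179 in limma. The call was lost without Syn 1, Syn 2, Syn 3 or Allo 4 (adjusted p of 0.0945, 0.0802, 0.0699 and 0.0653 in limma), without Allo 3 and 4 together (0.0902 in limma) and when peaks were ranked by fold (0.0544 in limma), with differences of 43.0 to 50.6 points. The region nearer to the gene (81584780 to 81586531) lay between 91.1 and 94.5 in all libraries.

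For 39 other p53 targets, 102 of 197 regions were shared, 4 were open in Allo only (1.14% of all regions) and 1 in Syn only (1.01%). Of the shared regions 0 passed the adjusted threshold in limma, against 0.457% of all. At an unadjusted p under 0.05 in limma there were 10, against 15.4% of all shared regions. The Allo-only regions belonged to Apaf1, the core of the apoptosome, to Bid, a BH3-only protein, to Plk2, a polo-like kinase, and to Polk, a translesion polymerase. The Bid region had percentiles of 34.4, 34.2, 48.0 and 53.2 in Allo 1 to 4, and those of the other 3 genes ranged from 2.30 to 65.1. Plk2 also held the Syn-only region, with percentiles of 24.2, 41.3 and 8.88.

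For 19 genes of DNA damage signalling, 25 of 54 regions were shared, 1 was open in Allo only (1.14% of all regions) and 0 in Syn only (1.01%). Of the shared regions 0 passed the adjusted threshold in limma, against 0.457% of all. At an unadjusted p under 0.05 in limma there were 4, against 15.4% of all shared regions. The Allo-only region belonged to Trp53bp1, which binds chromatin at DNA breaks, with percentiles of 32.0, 7.39, 46.9 and 36.5. Median differences were 1.99 points in the regulators, 0.258 in the other targets and 0.0764 in the damage genes, against 0.436 in all shared regions.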

How the data were processed

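Omni-ATAC-seq libraries were grouped by their titles into Syn (3) and Allo (4). Per the submitters' processing notes the tools were MACS2, MACS3, Bowtie2 and Trim Galore on mm10; roles and versions are not stated there. The authors deposited 1 peak list per library of 10 columns, called per library. The deposited columns used were a score, a fold (ratio over background), the -log10 p-value, the -log10 q-value and the summit offset. The fold and q-values are the authors' values for each peak and were used to describe or rank peaks within a list. The peak threshold is not stated in the labels, and the handling of Tn5 insertions and read extension cannot be read from the labels or lists. Both can move peak number and width. The lowest -log10 q of each list was 1.30, 1.37 and 1.42 in Syn 1 to 3. In Allo 1 to 4 it was 1.31, 1.33, 1.34 and 1.38, so the lists ended at similar values. Depth is unknown, so no interval on counts was computed.

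Genes were the 21627 protein-coding genes of a RefSeq table of GRCm38.p6. Regions were assigned by the summit of their best-ranked peak, and ties in the -log10 q were broken by the -log10 p and then the fold. Rank percentiles of regions open in all libraries were compared with limma 3.58.1 (trend) in R 4.3.3 with Benjamini-Hochberg adjustment at 0.05, and peak numbers by exact permutation. The fit was tested on simulated data, where it made no false calls and missed most planted shifts, also shifts larger than any difference of the member regions. Shifts were planted only in regions of middle percentile, so this outcome does not describe start regions near the top of the lists. The labels give a pool of 3 to 4 mice per library, and the libraries were treated as separate pools. No lists were copies of each other. The members and gene lists were chosen with earlier results of these data known. Of 133 entries in the lists, 131 matched a gene. Named were the 10 genes, regions that separated the groups or passed the threshold, otherwise the 3 largest rank differences in each direction, list genes with such regions, Trp53 and Mdm4; regions whose groups did not overlap were named after their values were seen. The tandem motif with at most 1 mismatch was added after the data were seen. Other settings tried were lists cut to 62977 peaks, a minimum -log10 q of 5, windows of 501 bp around summits, assignment within 10 kb or in gene bodies, ranks by fold or among shared regions, normal scores, a mean percentile of at least 20, a replicate block and leaving out libraries. Python 3.11.15 with numpy 2.4.6, pandas 2.3.3 and scipy 1.17.1 was used.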

Additional observations from a re-analysis of the deposited data

Results flagged for a closer look

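Within the 4 Allo libraries, 1 library stood apart from the remaining 3 in 6 of 45 sets of values, a flag that chance raises in about 1 of 20 sets of continuous values. Peak numbers are small whole numbers with ties, where any gap of a single peak beside 3 equal values raises it, so that rate does not apply to them. For peak number, Allo 1 held 3 peaks of Cdkn1a where the others held 4, and 1 peak of Ccng1 where the others held 2. Allo 2 held 3 peaks of Trp53inp1 where the others held 4, and Allo 4 held 3 peaks of Eda2r where the others held 2. Each of these 4 gaps is a single peak. In rank percentile, Allo 1 stood at 49.1 in region 6 of Pmaip1, where the others lay between 65.5 and 67.7, and at 29.8 in region 13, where they lay between 56.7 and 58.2. Allo 1 had the shortest list, and the part of list length in these values was not tested.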

How the results depend on the processing

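The number of member regions open in all 7 libraries changed most in gene bodies alone, where it was 9 of 17 in place of 31 of 57. The number that separated the groups was 1, and it was 0 with cut lists, within 10 kb and in gene bodies, 7 without Allo 1 and 2 (5 Allo-only, 2 Syn-only, with 9.12% of all regions separating), and 1 to 3 without each library in turn, being 2 without Syn 1 or Syn 2 and 3 without Allo 2. The number of shared member regions past the threshold was 0 and became 1 (Pmaip1 region 3) among shared regions and 3 without Allo 1 and 2 (Phlda3 3 and Pmaip1 3 and 14), where 6833 regions passed genome-wide. Separating regions of the pathway lists numbered 7, then 19 without Allo 3 and 4, 45 without Allo 1 and 2, and 9 to 16 without each library in turn, being 13 without Syn 2, 16 without Allo 1 and 14 without Allo 2. Allo 3 and 4 are named by another scheme than the other lists, and a shared calling procedure is not stated. Differences in best percentile, none past the threshold, changed sign in gene bodies for Bbc3 (-2.39) and Trp53inp1 (8.49), by fold for Cdkn1a (-1.21), Mdm2 (-1.82), Bbc3 (-5.50) and Pmaip1 (4.88), without Allo 3 and 4 for Bbc3 (-0.585) and without Allo 1 and 2 for Ccng1 (0.102). That of Zmat3 ranged from -2.11 to 1.38 without each library in turn. The causes of these changes were not tested. Correlations of deviations were 0.0755, -0.0334 and 0.0741 between libraries of the same replicate number and -0.0926 to 0.0375 between the others. All were small, though the highest, 0.0755 and 0.0741, were of the same number. With a replicate block 0 member regions passed the threshold, the lowest adjusted p being 0.135 in limma, against 154 regions genome-wide. Depth is unknown and the threshold of the lists is not given, so a missing peak cannot be told apart from one below the threshold.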
